A study of Mus musculus with 6 samples.

Results

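Dnmt1, Dnmt3a, Dnmt3b, Dnmt3l, Uhrf1 and Uhrf2 encode the mouse DNA methyltransferases and the UHRF cofactors, and their RNA was compared here between Tet1 knockout and non-targeted clones of mouse induced pluripotent stem cells (iPSCs). The genes were taken by symbol from a table of read counts, where they are 6 of 48440 genes, and all 6 were among the 14664 genes with enough reads to be tested. Polyadenylated RNA was sequenced from 3 Tet1 knockout clones (clones 14, 30 and 33, replicates 1 to 3) and 3 non-targeted clones (clones 49, 51 and 52, replicates 1 to 3). All 6 clones came from the male line iPSC34.3, reprogrammed from wild-type embryonic fibroblasts and carrying a Pou5f1-EGFP reporter transgene (genotype wt/wt;GFP/wt), and the knockout clones are labelled Tet1 Cas9 mut/mut in addition. The strain label, which names both B6- Tet1tm1Kohx and B6;CBA-Tg(Pou5f1-EGFP)2Mnn/J, is the same for both groups. After 14 passages the line was given Cas9 protein with a guide RNA for Tet1 and a donor oligonucleotide, then 12 h of an enhancer of homology-directed repair, and picked colonies were grown for 4 passages on fibroblast feeders that were removed before RNA extraction. The labels give that text for both groups and do not say how the non-targeted clones differed in handling. Every library is its own clone, so the p-values reflect how clones of 1 parental line vary.

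DNA methylation in mammals is laid down by the de novo enzymes DNMT3A and DNMT3B and is copied onto the new strand at each replication by DNMT1. DNMT3L lacks catalytic activity and stimulates the de novo enzymes, and UHRF1 recognises the half-methylated DNA behind the replication fork and brings DNMT1 to it. UHRF2 is a paralogue of UHRF1 that does not replace it in maintenance. TET1 works in the opposite direction, since it oxidises 5-methylcytosine. In mouse pluripotent cells the levels of these genes differ between states, and Dnmt3a and Dnmt3b go up as cells move to the formative state.

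The libraries held between 11937909 and 16189554 counts. Levels are given as CPM, which is the gene's count after TMM scaling has put the libraries on 1 common size. Tet1 itself had 365, 231 and 288 CPM in knockout replicates 1 to 3, against 1158, 966 and 1034 CPM in non-targeted clones, a log2 fold change of -1.84 ± 0.16 (SE). Its edgeR quasi-likelihood adjusted p was 0.0703, and DESeq2, in which it fell, gave 9.06e-20. No gene passed an adjusted p of 0.05 in edgeR with all 6 libraries, whereas 3640 genes had an unadjusted edgeR p under 0.05 and DESeq2 called 1247. Without knockout replicate 1, the knockout clone whose marker list medians lay closest to the non-targeted clones, edgeR called 4404 genes. Calls are therefore given with and without that library. Markers of the labelled cell type were present, with the 10 pluripotent cell markers summing to 2939 to 5068 CPM in knockout and 4666 to 5348 CPM in non-targeted libraries, and none of them was at 0.

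All 6 genes were found in the RefSeq promoter set (GRCm38.p6, 250 bases before to 50 bases after each annotated start). The promoters of the 3 genes that were lower in every knockout clone are shown because they differ in CpG content. CpG sites are where DNA methyltransferases act. Where a gene has several annotated starts the one with the most CpG sites was taken. They are written 5′ to 3′ on the strand of the gene, and capitals mark CpG sites.
Dnmt1, chr9:20952574-20952873, minus strand: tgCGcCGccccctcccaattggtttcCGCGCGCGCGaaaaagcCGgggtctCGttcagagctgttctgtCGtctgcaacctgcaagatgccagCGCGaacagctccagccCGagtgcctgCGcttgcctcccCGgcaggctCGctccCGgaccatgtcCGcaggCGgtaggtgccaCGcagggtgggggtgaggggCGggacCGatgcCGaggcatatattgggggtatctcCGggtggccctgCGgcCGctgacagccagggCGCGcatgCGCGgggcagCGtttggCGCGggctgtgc
Uhrf1, chr17:56304063-56304362, plus strand: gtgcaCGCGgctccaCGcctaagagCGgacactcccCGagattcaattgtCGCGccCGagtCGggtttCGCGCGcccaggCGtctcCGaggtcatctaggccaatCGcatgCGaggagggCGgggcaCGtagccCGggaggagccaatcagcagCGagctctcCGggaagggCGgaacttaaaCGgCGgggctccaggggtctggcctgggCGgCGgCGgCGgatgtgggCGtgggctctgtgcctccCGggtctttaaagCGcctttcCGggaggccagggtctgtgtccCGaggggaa
Dnmt3l, chr10:78042037-78042336, plus strand: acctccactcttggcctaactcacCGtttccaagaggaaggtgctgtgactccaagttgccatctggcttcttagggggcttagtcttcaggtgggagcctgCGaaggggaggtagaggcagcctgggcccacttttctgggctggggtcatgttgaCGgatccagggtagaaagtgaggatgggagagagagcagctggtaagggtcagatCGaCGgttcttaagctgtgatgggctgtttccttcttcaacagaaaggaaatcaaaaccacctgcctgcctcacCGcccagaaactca
The Dnmt1 and Uhrf1 windows hold 33 CpG sites each, and 8.56% of the 32851 RefSeq promoters hold at least as many. The Dnmt3l window holds 6, close to the median of 7 per promoter, and its other 2 annotated starts have 4 and 3. Among the members that are not shown, the CpG-richest windows of Dnmt3a, Dnmt3b and Uhrf2 hold 47, 30 and 28 CpG sites, so Dnmt3l is the only one of the 6 without a CpG-dense annotated start. The motif CCAAT, searched on both strands with overlapping matches counted, occurs 3 times in the Dnmt1 window shown and 2 times in that of Uhrf1. It is absent from all the windows of Dnmt3a, Dnmt3b, Dnmt3l and Uhrf2, while 37.4% of all promoters hold it. Of the E2F-type strings TTTGGCGC and TTTCCCGC, each of which contains a CpG counted above, the first was found 1 time in the Dnmt1 window and in 0.514% of promoters, and the second in none of the members' windows and in 1.07% of promoters. The gene-level counts do not tell which start was used.

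Of the maintenance genes, the methyltransferase and its recruiter had lower levels in all 3 knockout clones than in any of the 3 non-targeted clones, and the paralogue of the recruiter had higher ones. Dnmt1 (ENSMUSG00000004099.15, chromosome 9, 20907206 to 20959888, minus strand, GRCm38) had 512, 466 and 442 CPM in knockout replicates 1 to 3, against 597, 545 and 617 CPM in non-targeted replicates 1 to 3. The groups did not overlap, with 512 CPM in the highest knockout clone and 545 CPM in the lowest non-targeted clone. Means were 473 ± 35.7 CPM in knockout and 586 ± 37.2 CPM in non-targeted clones (SD, n = 3 each), a log2 fold change of -0.31 ± 0.082 (SE, 95% interval -0.50 to -0.12), which is 0.808 times the non-targeted level. The unadjusted edgeR p was 0.00626 and the adjusted p 0.120, with 0.0517 in DESeq2, so Dnmt1 did not pass the threshold in either tool. In bulk RNA, fewer cells that express a gene and less RNA per cell cannot be told apart.

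Uhrf1 (ENSMUSG00000001228.14, chromosome 17, 56303321 to 56323486, plus strand), which reads half-methylated CpG sites for DNMT1, had 674, 553 and 459 CPM in knockout replicates 1 to 3, against 761, 687 and 762 CPM in non-targeted replicates. The knockout clones were spread widely, with replicate 3 lowest, and replicate 1 lay only 1.89% below the lowest non-targeted clone, a gap close to the largest counting error of a library, 1.25%. The mean was 562 ± 108 CPM in knockout and 737 ± 43.1 CPM in non-targeted clones, a log2 fold change of -0.39 ± 0.13 (95% interval -0.70 to -0.076) with an edgeR adjusted p of 0.149 and a DESeq2 adjusted p of 0.0917. Uhrf2 (ENSMUSG00000024817.13, chromosome 19, 30030513 to 30093722, plus strand) went the other way. It had 72.3, 84.3 and 75.6 CPM in knockout replicates, against 68.3, 61.8 and 56.9 CPM in non-targeted replicates, again without overlap. The gap between the nearest clones was 5.90%, beside a largest counting error of 3.50% in a single library. A gap carries the counting error of both clones, which is larger than that of either. Its mean was 77.4 ± 6.21 CPM in knockout and 62.3 ± 5.73 CPM in non-targeted clones, a log2 fold change of 0.31 ± 0.10 (95% interval 0.074 to 0.55), with adjusted p-values of 0.142 in edgeR and 0.118 in DESeq2.

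The de novo enzymes varied more between clones of a group than between the groups. Dnmt3a (ENSMUSG00000020661.15, chromosome 12, 3806007 to 3914443, plus strand) had 226, 288 and 435 CPM in knockout replicates 1 to 3, against 253, 299 and 303 CPM in non-targeted replicates. Knockout replicate 1 was the lowest library of all and knockout replicate 3 the highest, so the non-targeted clones lay between them. The log2 fold change was 0.15 ± 0.22 (95% interval -0.36 to 0.67; 316 ± 107 CPM in knockout and 285 ± 27.8 CPM in non-targeted clones), with an edgeR adjusted p of 0.693. Dnmt3b (ENSMUSG00000027478.15, chromosome 2, 153649450 to 153687730, plus strand) had the same order of knockout clones, with 535, 940 and 1287 CPM in knockout replicates, against 539, 927 and 817 CPM in non-targeted replicates. Replicate 1 was the lowest clone in both groups, and the highest clone had 2.40 times the level of the lowest in the knockout and 1.72 times in the non-targeted group. The log2 fold change of Dnmt3b was 0.27 ± 0.32 (921 ± 376 CPM in knockout and 761 ± 200 CPM in non-targeted clones), with an edgeR adjusted p of 0.613. The interval, 0.722 to 2.03 times the non-targeted level, includes both lower and higher levels. Without knockout replicate 3 the edgeR log2 fold changes became -0.15 for Dnmt3a and -0.045 for Dnmt3b. The row of Dnmt3b may share reads with its near copy Dnmt3c, listed as a pseudogene with 8, 11 and 13 counts in knockout and 4, 12 and 10 in non-targeted libraries. The division of reads between these 2 genes is uncertain.

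Dnmt3l (ENSMUSG00000000730.13, chromosome 10, 78041947 to 78063622, plus strand), the non-catalytic partner of the de novo enzymes, had the lowest fold change of the 6 genes. It had 397, 336 and 339 CPM in knockout replicates 1 to 3, against 513, 421 and 579 CPM in non-targeted replicates. The groups did not overlap, with a gap of 5.62% between the nearest clones, and here the wider spread was among the non-targeted clones. The mean was 357 ± 34.7 CPM in knockout and 505 ± 79.5 CPM in non-targeted clones, a log2 fold change of -0.50 ± 0.13 (95% interval -0.79 to -0.20), or 0.709 times the non-targeted level. Dnmt3l fell in DESeq2 (adjusted p 0.0227) and did not pass in edgeR (unadjusted p 0.00519, adjusted p 0.116) or in limma voom (adjusted p 0.121). The DESeq2 call was lost when any of 4 libraries was left out: leaving out knockout replicate 2 gave an adjusted p of 0.176 and knockout replicate 3 gave 0.143, and among non-targeted clones replicate 1 gave 0.179 and replicate 3 gave 0.255. It was kept without knockout replicate 1 (DESeq2 adjusted p 0.000127), and leaving out replicate 2 of the non-targeted group kept it as well (DESeq2 adjusted p 0.00434). The gene Aire overlaps 7.68% of the Dnmt3l span on the other strand, and the counting was strand-specific.

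**Figure D1:**
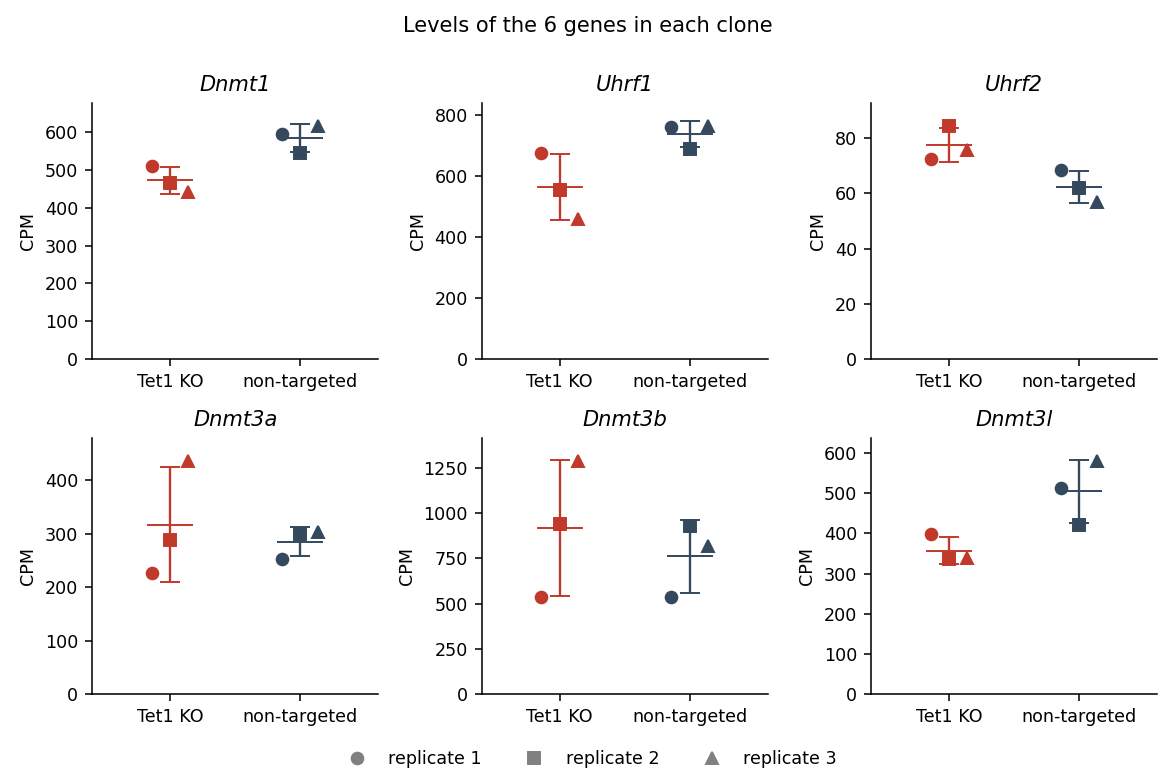
Level in CPM (y axes from 0, a scale for each gene) of Dnmt1, Uhrf1, Uhrf2, Dnmt3a, Dnmt3b and Dnmt3l in the 3 Tet1 KO clones (red, left) and the 3 non-targeted clones (dark, right); each symbol is 1 clone, the horizontal line is the mean and the bars are the SD. Dnmt1, Uhrf1 and Dnmt3l are lower in all 3 knockout clones and Uhrf2 higher, while Dnmt3a and Dnmt3b overlap, with 1287 CPM of Dnmt3b in knockout replicate 3.

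Over the 6 genes, 0 passed the adjusted threshold in edgeR (0% of the 14664 tested genes passed), 1 passed in DESeq2 (9.12% of tested genes) and 4 had an unadjusted edgeR p under 0.05 (24.8% of tested genes). The groups did not overlap for 4 of the 6, with 3 lower and 1 higher, against 29.5% of all tested genes. Without knockout replicate 1, Dnmt1, Dnmt3l and Uhrf1 fell and Uhrf2 rose in edgeR, with adjusted p-values of 0.00952, 0.0103, 0.00501 and 0.0348. The log2 fold changes were then -0.37 for Dnmt1, -0.58 for Dnmt3l, -0.55 for Uhrf1 and 0.36 for Uhrf2. The same count of 4 passed in DESeq2 without that library. Those fits rest on 2 knockout clones, and 29.1% of tested genes passed in edgeR and 28.5% in DESeq2, so the calls of these 4 genes depend on that clone. Knockout replicate 1 was, in each of the 4 genes, the knockout clone nearest to the non-targeted clones.

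**Figure D2:**
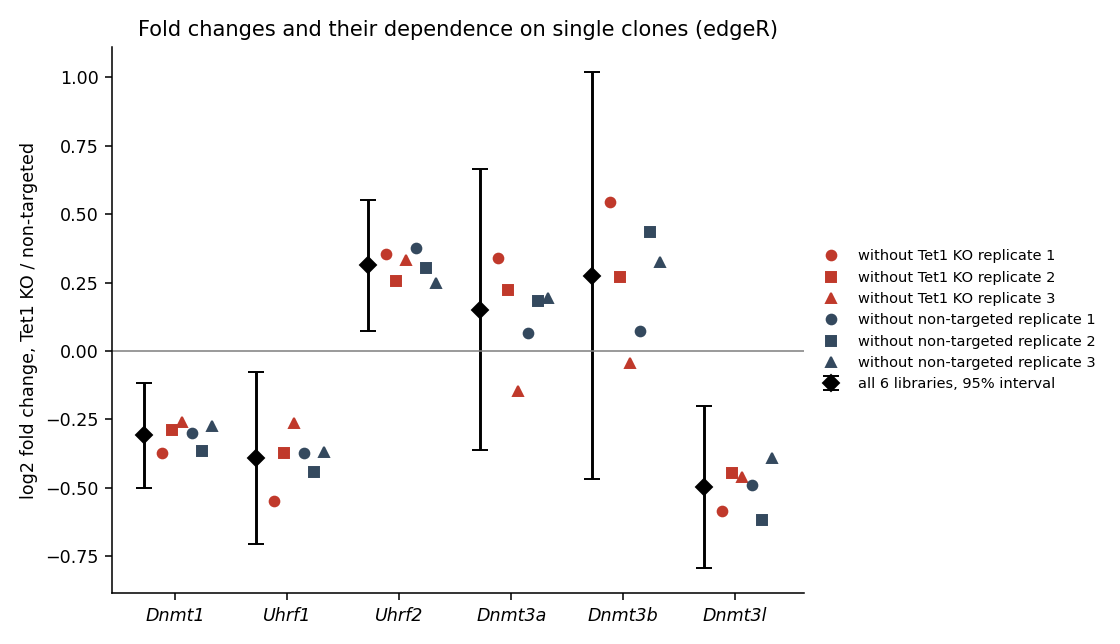
Log2 fold change of Tet1 KO over non-targeted clones (y axis, edgeR) of the 6 genes; black diamonds are the values from all 6 libraries with their 95% interval, and the coloured symbols are the values with 1 clone left out. Dnmt1, Uhrf1 and Dnmt3l stay below 0 and Uhrf2 above 0 in every such fit, while Dnmt3a and Dnmt3b pass below 0 without knockout replicate 3 (-0.15 and -0.045).

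Between genes, levels were compared per length, as CPM per kilobase of the exons of each gene. In the knockout clones Dnmt3b was highest at 180 ± 73.7, followed by Uhrf1 at 132 ± 25.3 and Dnmt3l at 120 ± 11.6, all in CPM per kilobase (SD, n = 3). In the non-targeted clones the order of these levels was Uhrf1 at 173 ± 10.1, Dnmt3l at 169 ± 26.6 and Dnmt3b at 149 ± 39.2 CPM per kilobase. The ranges of neighbours among these 3 genes overlapped in both groups, so their order was not resolved. Dnmt1 followed at 64.2 ± 4.83 CPM per kilobase in the knockout and 79.4 ± 5.05 in the non-targeted clones. Dnmt3a stood well below its relative Dnmt3b, with 19.0 ± 6.44 CPM per kilobase in the knockout and 17.1 ± 1.67 in the non-targeted clones. The lowest level was that of Uhrf2, with 9.01 ± 0.723 CPM per kilobase in the knockout and 7.25 ± 0.667 in the non-targeted clones. From Dnmt1 downward no neighbours in the order overlapped in either group. The counts include intronic reads, and the exon lengths are unions over all annotated transcripts, between 2988 bases for Dnmt3l and 16642 bases for Dnmt3a, so these levels are approximate.

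Either Uhrf1 or Dnmt3b took the largest part of the summed reads of the 6 genes in each library. The share of Dnmt3b was 22.1%, 35.2% and 42.4% in knockout replicates 1 to 3, against 19.7%, 31.5% and 26.1% in non-targeted replicates. The share of Uhrf1 was 27.9%, 20.7% and 15.1% in knockout replicates, against 27.9%, 23.4% and 24.3% in non-targeted replicates. Among the 6 libraries, knockout replicate 3 had the largest share of Dnmt3b and the smallest of Uhrf1. The sum of the 6 genes was between 2417 and 3037 CPM in knockout and between 2730 and 3136 CPM in non-targeted clones, so the groups overlapped.

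Ratios between genes of the same library need no scaling between libraries. The log2 ratio of Dnmt3l to the summed Dnmt3a and Dnmt3b counts, the cofactor over its enzymes, was -0.94, -1.87 and -2.34 in knockout replicates 1 to 3, against -0.63, -1.54 and -0.95 in non-targeted replicates. The means were -1.72 ± 0.72 in the knockout and -1.04 ± 0.46 in the non-targeted clones (SD, n = 3 each), a difference of -0.68 with a two-sided exact permutation p of 0.3. Replicate 1 of the knockout lay within the non-targeted range, and 3 against 3 clones cannot give a p below 0.1. For Uhrf1 over Dnmt1, the recruiter over the enzyme it recruits, the log2 ratio was 0.40, 0.25 and 0.055 in knockout replicates, against 0.35, 0.34 and 0.31 in non-targeted replicates. The non-targeted clones differed by little and the knockout clones lay on both sides of them (difference -0.098, two-sided exact permutation p = 0.5). The log2 ratio of the de novo enzymes to Dnmt1 was 0.57, 1.40 and 1.96 in knockout replicates, against 0.41, 1.17 and 0.86 in non-targeted replicates. Its means were 1.31 ± 0.70 in the knockout and 0.81 ± 0.38 in the non-targeted clones, and the groups overlapped (difference 0.50, two-sided exact permutation p = 0.4).

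**Figure D3:**
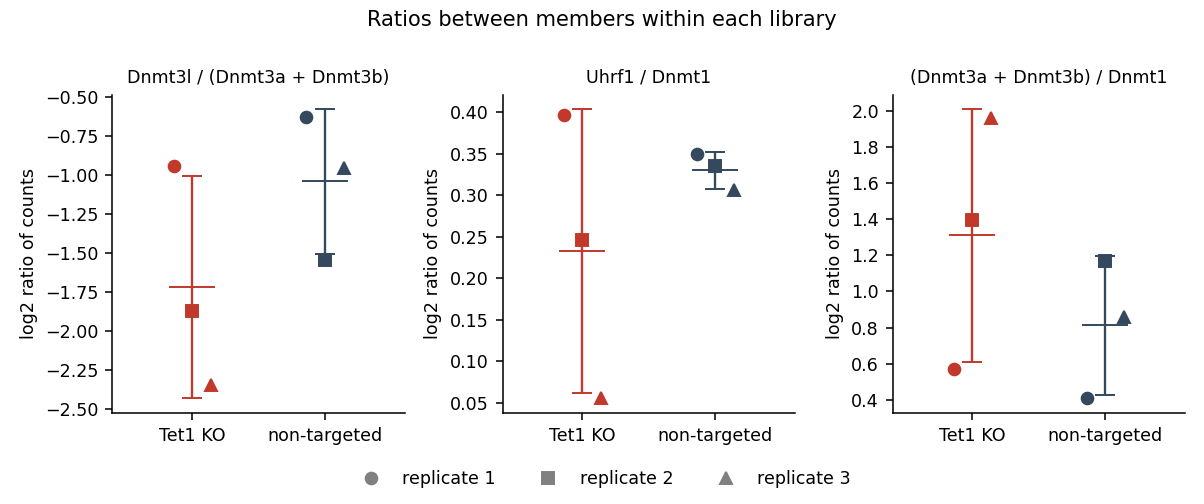
Log2 ratio of counts within each library (y axes, not starting at 0) for Dnmt3l over Dnmt3a plus Dnmt3b, Uhrf1 over Dnmt1, and Dnmt3a plus Dnmt3b over Dnmt1, in Tet1 KO (red, left) and non-targeted clones (dark, right); symbols are clones, lines are means and bars are the SD. The groups overlap in all 3 panels, and knockout replicate 3 has the lowest value in the first and second panels and the highest in the last.

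The order of the knockout clones in Dnmt1, Uhrf1, Dnmt3a and Dnmt3b was also seen in lists of cell state markers. As log2 CPM minus the non-targeted mean, Uhrf1 stood at -0.13, -0.41 and -0.68 in knockout replicates 1 to 3, and the median of the 10 pluripotent cell markers at -0.061, -0.40 and -0.77. The non-targeted replicates lay between -0.099 and 0.051 for Uhrf1 and between -0.11 and 0.11 for those markers. Dnmt3b stood at -0.47, 0.34 and 0.79 in knockout replicates, against -0.46, 0.32 and 0.14 in non-targeted replicates. The median of 10 formative and primed epiblast markers stood at 0.28, 0.77 and 1.13 in knockout replicates, against -0.22, 0.31 and -0.11 in non-targeted replicates. Both Dnmt3b and that list were lowest in replicate 1 and highest in replicate 2 among the non-targeted clones. Of the 10 formative markers 3 rose in DESeq2, in which 5.77% of all tested genes rose. That count was 4 without knockout replicate 1 or non-targeted replicate 2 and 0 without any other library. Without knockout replicate 1, 28.5% of all tested genes passed in DESeq2, in either direction. Fold changes were above 0 for 7 and below 0 for 3. Without overlap between groups, 2 markers were higher and 2 lower, against 14.8% and 14.7% of all tested genes. The summed level of the list was 360 to 529 CPM in knockout and 287 to 355 CPM in non-targeted libraries. The pluripotent markers had fold changes below 0 in 10 of 10, and none passed in edgeR or DESeq2. An unadjusted edgeR p under 0.05 was found for 2 of them, against 24.8% of all tested genes. Without knockout replicate 1, where 29.1% of all tested genes passed in edgeR, 8 pluripotent markers fell, and of the formative markers 5 rose and 3 fell. With any other library left out edgeR called none of either list.

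As a list, fibroblast markers, which could come from the feeder layer, were higher in all 3 knockout clones. The list median stood at 0.66, 0.82 and 2.23 in knockout replicates 1 to 3, against -0.31, 0.26 and 0.12 in non-targeted replicates. All 15 tested of 16 had a fold change above 0, 9 rose in DESeq2 (5.77% of all tested genes) and 13 were higher without overlap (14.8% of all tested genes). The summed level of the list was 595 to 1072 CPM in knockout and 454 to 530 CPM in non-targeted libraries, with none of the 16 at 0 in any library. With 1 library left out the DESeq2 count for this list was between 0 and 15. EdgeR gave 14 risen without knockout replicate 1 and none without any other library. Without knockout replicate 1, 28.5% of all tested genes passed in DESeq2 and 29.1% in edgeR, in either direction. The 6 tested of 10 primitive streak and mesendoderm markers had fold changes above 0, and 2 rose in DESeq2. Leaving out knockout replicate 1 made that count 4 and leaving out replicate 2 of the non-targeted group made it 3, while it was 1 without knockout replicate 3 and 0 in the other fits. The list had a summed level of 16.0 to 91.8 CPM in knockout and 9.17 to 18.1 CPM in non-targeted libraries. Mesp1, Lhx1 and Sox17 of that list were at 0 in at least 1 library. S phase and replication genes, which vary with the share of dividing cells as Dnmt1 and Uhrf1 do, had medians of -0.053, -0.19 and -0.30 in knockout replicates 1 to 3, against 0.034, -0.044 and 0.021 in non-targeted replicates. The part of feeder cells, cell state or cell division in the differences of the 6 genes was not tested.

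**Figure D4:**
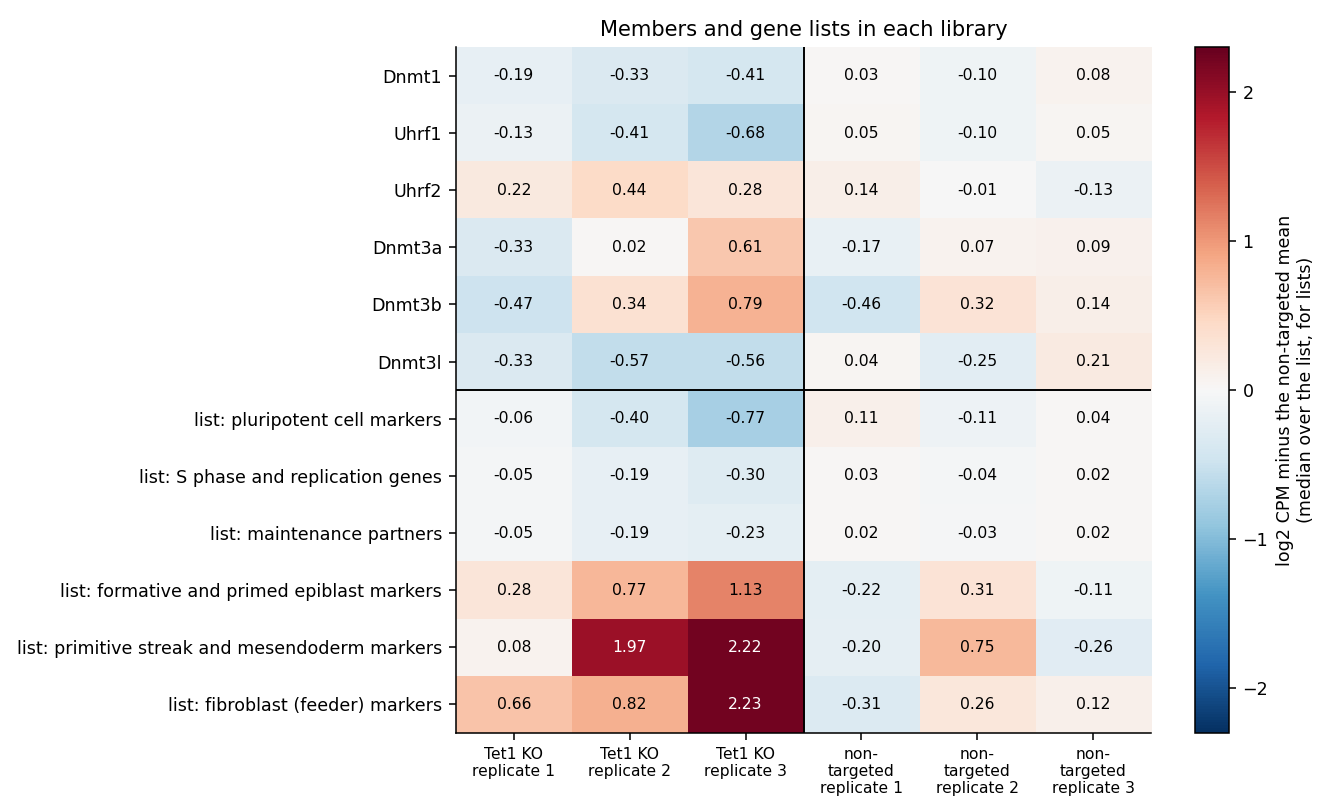
Log2 CPM minus the non-targeted mean (colour and printed value) in the 3 Tet1 KO libraries (left) and the 3 non-targeted libraries (right) for the 6 genes (top) and, as list medians, for 6 gene lists (below). Knockout replicate 3 has the lowest Uhrf1 (-0.68) and pluripotent marker median (-0.77) and the highest Dnmt3b (0.79) and fibroblast marker median (2.23).

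The other genes of the methylation pathway were read as lists, set beside a median log2 fold change of 0.0021 over all tested genes. The 15 maintenance partners had a median of -0.15, with 13 of 15 below 0, 2 fallen in DESeq2 and none risen. Over all tested genes, 3.35% fell and 5.77% rose in DESeq2. Trim28, the corepressor that holds methylation at imprinted genes and retroelements, fell, with 2044 ± 229 CPM in knockout and 2696 ± 271 CPM in non-targeted clones (DESeq2 adjusted p 0.0391). The other fallen gene was Lig1, the ligase that joins Okazaki fragments and a binding partner of UHRF1, with 320 ± 29.0 CPM in knockout and 420 ± 46.8 CPM in non-targeted clones (DESeq2 adjusted p 0.0419). The 19 tested S phase and replication genes had a median of -0.19, with 15 of 19 below 0, and again 2 fell in DESeq2 and none rose. They were Ccne1, the cyclin of S phase entry (306 ± 12.5 CPM in knockout and 373 ± 22.1 CPM in non-targeted clones), and the primase subunit Prim1 (73.9 ± 7.20 CPM in knockout and 95.8 ± 7.10 CPM in non-targeted clones). Their DESeq2 adjusted p-values were 0.0420 and 0.0440.

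Genes that guide the de novo enzymes or regulate them showed no common direction. Of 9 tested of 10, 1 rose in DESeq2 (5.77% of all tested genes), none fell, and the median log2 fold change was -0.091. The risen gene was Setd2, the histone H3K36 trimethylase whose mark DNMT3B reads, with 280 ± 5.59 CPM in knockout and 235 ± 2.57 CPM in non-targeted clones (log2 fold change 0.25 ± 0.061, DESeq2 adjusted p 0.0467). Kmt2a, a histone H3K4 methyltransferase, had 183 ± 25.1 CPM in knockout and 157 ± 1.35 CPM in non-targeted clones and did not pass (DESeq2 adjusted p 0.320). Of the genes that make the methyl donor and feed one-carbon metabolism, 18 were tested, with a median of 0.013. In DESeq2 1 of them fell, against 3.35% of all tested genes. This was Tdh, the threonine dehydrogenase that mouse pluripotent cells use to supply one-carbon units, with 206 ± 31.0 CPM in knockout and 315 ± 24.9 CPM in non-targeted clones (log2 fold change -0.61 ± 0.12, DESeq2 adjusted p 0.00196).

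On the reading and removing side, none of 10 methyl-CpG readers passed in edgeR or DESeq2, and their median was 0.14. Of the 10, 3 had an unadjusted edgeR p under 0.05, against 24.8% of all tested genes. Mbd5 had 18.5 ± 4.79 CPM in knockout and 12.4 ± 1.31 CPM in non-targeted clones (DESeq2 adjusted p 0.109). Mbd4, a glycosylase that repairs mismatches at methylated CpG sites, had 59.5, 25.6 and 21.6 CPM in knockout replicates 1 to 3, against 72.0, 62.2 and 62.9 CPM in non-targeted replicates (DESeq2 adjusted p 0.0680). Its 10 tested neighbours on chromosome 6 stood at a median of -0.063, -0.92 and -0.29 on the log2 scale in the same knockout clones, and the part of this stretch in the Mbd4 values was not tested. Besides Tet1, the oxidase gene that passed in DESeq2 was Tet3, which rose (39.0 ± 17.0 CPM in knockout and 17.1 ± 3.23 CPM in non-targeted clones, adjusted p 0.00635). Tet2 did not pass (log2 fold change -0.83, DESeq2 adjusted p 0.366). It had 250, 108 and 62.3 CPM in knockout replicates 1 to 3, against 279, 220 and 249 CPM in non-targeted replicates.

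Germline genes known for promoter methylation outside germ cells mostly had fold changes below 0. Methylation was not measured, and not all of these genes were silent in these cells. In non-targeted clones Tex19.1 had a mean of 92.5 CPM and Dazl of 46.3 CPM. Of 14 tested of 17, 12 had a fold change below 0, with a median of -0.17, 4 fell in DESeq2 and 1 rose. Asz1, a piRNA pathway gene, had 0.690, 0.0827 and 0 CPM in knockout replicates 1 to 3, against 3.79, 1.68 and 2.15 CPM in non-targeted replicates (DESeq2 adjusted p 0.00773). It lies on chromosome 6, where the median log2 fold change of 743 tested genes was -0.19, and the part of the chromosome in its values was not tested. The other fallen genes, named after their values were seen, were Tuba3a, Hormad1 and Slc25a31, with log2 fold changes of -1.69, -1.07 and -1.57. The part of chromosomal position in the values of these genes was not tested either. Tdrkh, a tudor-domain gene of the same pathway as Asz1, rose, with 5.57 ± 2.18 CPM in knockout and 1.88 ± 0.293 CPM in non-targeted clones (DESeq2 adjusted p 0.00590). The list thus held genes that went in opposite directions. Over all 89 tested genes of these lists other than the 6, 10 fell and 3 rose in DESeq2. The 10 fallen include Tet1, the targeted gene, 4 germline genes and 2 S phase genes. For 24 lower and 14 higher genes the groups did not overlap. Among all tested genes 3.35% fell and 5.77% rose in DESeq2, and 14.7% were lower and 14.8% higher without overlap. EdgeR called none of the listed genes with all 6 libraries (0% of the 14664 tested genes passed). Without knockout replicate 1, where it called 29.1% of all tested genes, 7 maintenance partners and 9 S phase genes were lower and none higher, though DESeq2 without that clone called 8 maintenance partners lower and 1 higher. The other lists were mixed in that edgeR fit. It called 5 lower and 2 higher among one-carbon genes, 5 lower and 1 higher among germline genes, 2 in each direction among de novo regulators, 1 in each direction among readers, and 2 lower and 1 higher among the oxidases and Tdg. With 1 library left out in turn, the DESeq2 call of Tet1 was kept in 6 of 6 fits and that of Tdh in 5, that of Tuba3a in 4, those of Asz1 and Hormad1 in 3, and those of Trim28, Lig1, Tet3 and Tdrkh in 2. Setd2, Ccne1, Prim1 and Slc25a31 kept theirs in 1 of 6 fits.

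**Figure D5:**
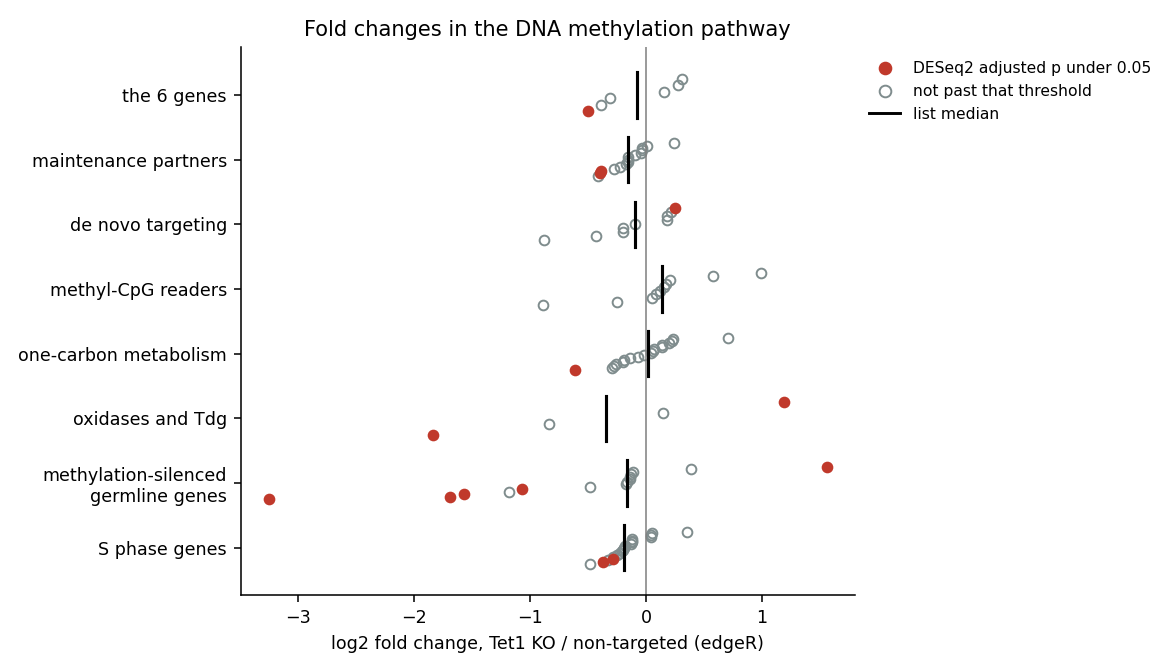
Log2 fold change of Tet1 KO over non-targeted clones (x axis, edgeR) for each tested gene (circles) of the 6 genes and of 7 pathway lists (y axis); filled circles passed DESeq2 at an adjusted p under 0.05 and black bars are list medians. Most genes lie within 1 of 0 on the log2 scale, with Tet1 at -1.84 and Asz1 at -3.25 as the lowest points of their lists.

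The genes whose pattern was most like each member were taken as the 3 with the highest Pearson r of log2 CPM over the 6 libraries, among 8733 genes with a mean of at least 10 CPM. For Dnmt1 these were Snrnp40, Hdac6 and Exosc5 (r of 0.999, 0.998 and 0.998). For Uhrf1 they were Kdm3a, Stag3 and Tubb2b (0.999, 0.998 and 0.998), and for Uhrf2 Map3k3, Usp3 and Psph (0.993, 0.990 and 0.990). Stag3 had 52.3, 24.3 and 13.8 CPM in knockout replicates 1 to 3, against 81.7, 54.4 and 74.6 CPM in non-targeted replicates, a steeper version of the Uhrf1 pattern. Tcfl5, Uxt and Hps5 came closest to Dnmt3a (0.995, 0.992 and 0.989), and Vps51 and Ece2 to Dnmt3b (0.996 and 0.994). Nearest to Dnmt3l were Gle1, Golgb1 and Smdt1 (0.995, 0.995 and 0.993). No member was among the 3 of another. With 6 libraries that share their scaling and so many genes, values this high are a description only. The 10 tested genes nearest to each member on its chromosome had median log2 fold changes between -0.10 around Dnmt3b and 0.069 around Dnmt3l.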

How the data were processed

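Polyadenylated RNA of 6 iPSC clones (3 Tet1 knockout, 3 non-targeted) was sequenced with a stranded kit in the same labelled sequencing batch. The table deposited by the authors holds raw, unscaled counts for each gene. HISAT2 2.1.0 with mm10, DESeq2 1.18.1 and featureCounts 1.5.3 are named in the submitters' processing notes. Per the file headers featureCounts 1.6.2 counted reverse-stranded reads over whole gene bodies, introns included, with GENCODE M15 on GRCm38.p5, and no option for multi-mapping or multi-overlapping reads was set. Gene spans are as deposited, per the file headers.

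From the deposited counts, genes were kept with filterByExpr of edgeR 4.0.16 (minimum count 10, minimum total 15), which left 14664 of the 25600 genes that had a count. TMM factors scaled the libraries, and the quasi-likelihood test of edgeR was used with group as its single term, with Benjamini-Hochberg adjustment over all tested genes at 0.05. The common biological coefficient of variation was 0.188. Alternatives were DESeq2 1.42.0, limma 3.58.1 (voom), size factors of DESeq2 in edgeR, no filter, a robust fit, a replicate block and leaving out each library. DESeq2 with a library left out, and the same for the calls in the lists, were added after seeing the data. All ran in R 4.3.3, and the edgeR, DESeq2 and voom fits were tested on simulated data. For log2 CPM a prior count of 2 was used. Ratios were compared with two-sided exact permutation tests over the 6 libraries. Exon lengths are from GENCODE M21, and promoter sequences from RefSeq GRCm38.p6. At 818 to 17899 counts for a member in a library, the counting error was at most 3.50%, and it covers counting only.

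The 6 genes and the lists were chosen with earlier results of these data known. Named genes are the 6, Tet1, up to 3 called or else the 2 genes with the smallest p of each pathway list, and the 3 most alike genes of each member. Any other gene is named for its position, its level or a stated count. Of the genes this rule takes, 2 are not reported here.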

Additional observations from a re-analysis of the deposited data

How the results depend on the processing

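Among 108 recomputed fold changes of the 6 genes, 94 kept their direction and side of the threshold, 10 newly passed it and 4 changed direction. Those 4 were Dnmt3a (-0.15 in edgeR and -0.16 in DESeq2) and Dnmt3b (-0.045 in edgeR and -0.055 in DESeq2) without knockout replicate 3. With 1 library left out their edgeR values ran from -0.15 to 0.34 for Dnmt3a and from -0.045 to 0.54 for Dnmt3b. The count of members past the threshold, 0 in edgeR, was 1 in DESeq2, 0 to 4 with 1 library left out in edgeR and 0 to 4 in DESeq2, where it was 4 without knockout replicate 1 and 1 without non-targeted replicate 2. The count over all genes, 0 in edgeR with 3640 at an unadjusted p under 0.05, was 159 without a filter, 1247 in DESeq2, 1 in voom, 0 to 4404 with 1 library left out in edgeR (4404 without knockout replicate 1, 0 without any other) and 127 to 4122 in DESeq2. In DESeq2 it was 4122, 307 and 262 without knockout replicates 1, 2 and 3, and 189, 768 and 127 without non-targeted replicates 1, 2 and 3. Size factors of DESeq2 and the robust fit gave 0. The causes were not tested. A replicate block gave 3 genes, none a member (Dnmt3l adjusted p 0.0809 and Dnmt1 0.0949 in edgeR). Deviations of same-numbered clones correlated at 0.46, 0.11 and -0.024, so the numbers were not taken as pairs. With the block the ratios kept their differences, tested there by flipping the signs of the differences between same-numbered clones. The exact sign-flip p was 0.25 for Dnmt3l over the de novo enzymes and 0.5 for Uhrf1 over Dnmt1. For the de novo enzymes over Dnmt1 it was 0.25. With 3 clones in a group that test cannot give a p below 0.25. With 1 library left out and no block, the differences of the ratios between groups were, in the same order, -1.07 to -0.36, -0.18 to -0.0087 and 0.17 to 0.87. Depth matters most for Uhrf1 and Uhrf2, whose gaps between the nearest clones of the groups (1.89% and 5.90%) were the closest to their largest counting errors (1.25% and 3.50%). Those errors are for single libraries, and a gap carries the error of both clones.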
